A study of Mus musculus with 8 samples.

Results

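The miR-148 and miR-152 family is a group of microRNAs made from 3 hairpins, miR-148a, miR-148b and miR-152, whose 3p arms carry one seed. It was followed here through 4 members chosen by name, miR-148a-3p, miR-148b-3p, miR-152-3p and the 5p arm miR-148a-5p, out of 422 miRNAs counted by small RNA sequencing. Hippocampal tissue of adult males aged 12 weeks were used, each mouse giving its own library, from 4 mice of the control strain C57BL/6J (B6) and 4 of BTBR T+ Itpr3tf/J (BTBR), an inbred strain that carries the tufted allele of Itpr3. The labels name no treatment in either group. BTBR is used as a model of idiopathic autism, so the comparison is between whole genetic backgrounds, and in bulk tissue fewer cells of a type and less RNA per cell cannot be told apart. The questions were whether miR-148b-3p and miR-152-3p followed miR-148a-3p between the strains, and what the seed family did as a whole.

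A miRNA hairpin is cut into a duplex with a 5p and a 3p strand, of which one strand, the guide, is mostly kept in Argonaute, while the other, the passenger, is mostly degraded. The guide recognises mRNAs chiefly through its seed, bases 2 to 8, so that miRNAs with the same seed share most predicted targets and can add to one another. In this family the 3p arm is the guide. The DNA methyltransferase gene Dnmt1 is a well-known target of miR-148a and miR-152, and miR-148a is also known for its work in liver lipid metabolism and in B cells.

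The mature sequences are shown because the family is defined by them. They come from RefSeq (build GRCm38.p6), 5′ to 3′, with the seed in capitals.
mmu-miR-148a-3p: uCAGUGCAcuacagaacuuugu
mmu-miR-148b-3p: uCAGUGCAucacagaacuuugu
mmu-miR-152-3p: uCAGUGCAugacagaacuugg
mmu-miR-148a-5p: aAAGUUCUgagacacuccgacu
mmu-miR-148b-5p: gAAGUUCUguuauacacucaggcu
mmu-miR-152-5p: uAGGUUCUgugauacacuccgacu

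The guides of the 3 hairpins shared the seed CAGUGCA, which pairs with TGCACTG in a transcript, and no other of the 1679 mature mouse miRNAs in the reference table had it. Counted from 1 at the 5′ end, miR-148a-3p differed from miR-148b-3p by C9U and U10C, and miR-148b-3p from miR-152-3p by C10G and U20G, miR-152-3p being 1 base shorter. All these differences lie outside the seed, and full-length reads of the guides can therefore be told apart. The passengers miR-148a-5p and miR-148b-5p shared a seed of their own, which miR-152-5p did not have.

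The hairpins lie on 3 chromosomes. miR-148a, with its guide at chr6:51269829-51269850 on the minus strand, overlapped no other annotated gene, and the nearest protein-coding gene, Nfe2l3, was 162760 bases away. miR-148b, with its guide at chr15:103285185-103285206, lay in an intron of Copz1 on the same strand. miR-152, with its guide at chr11:96850439-96850459, lay in an intron of Copz2, also on the same strand. Copz1 and Copz2 are paralogues that encode zeta subunits of the coatomer, the coat of vesicles that move from the Golgi to the endoplasmic reticulum.

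The libraries held between 2247482 and 7904990 counts. BTBR replicate 2 was the smallest, and it stood apart from the others. Its median Spearman correlation with the other libraries was 0.938, against 0.953 to 0.972 for the rest, and 59 of the 422 miRNAs lay over 2-fold above and 55 over 2-fold below their median in the other 7 libraries. Differences between the strains are therefore also given without it. Of the lists of marker miRNAs, the neuronal list was measured in full (5 of 5), and its summed level was 48757 to 77812 CPM in B6 against 57531 to 67379 CPM in BTBR, where CPM is the count scaled to a common library size with TMM normalization. The epithelial list, with 4 of 6 members measured, summed to 19.4 to 44.1 CPM in B6 and 117 to 192 CPM in BTBR. BTBR replicate 2 had the lowest sum of the strain. In that library miR-200a-3p (40.4 CPM) and miR-429-3p (5.84 CPM) were at their lowest of BTBR, and miR-200c-3p (59.3 CPM) lay among the other BTBR mice. miR-200b-3p (11.7 CPM) was at its highest of the 8 libraries there. The red blood cell list (4 of 4, 303 to 853 CPM in B6 against 531 to 1371 CPM in BTBR) and the microglia and leukocyte list (3 of 4, 323 to 408 CPM against 324 to 535 CPM) had their highest sums in BTBR replicate 2, and the vascular list (4 of 4, 8863 to 13365 CPM against 6831 to 10686 CPM) its lowest. The members of these lists did not all move alike there. miR-486a-5p, the main part of the red blood cell sum, had 1212 CPM in BTBR replicate 2 and 1244 CPM in BTBR replicate 3. Of the leukocyte markers, miR-150-5p (493 CPM) and miR-142a-3p (11.7 CPM) were at their highest of the 8 libraries in BTBR replicate 2 and miR-142a-5p (30.1 CPM) at its lowest. Of the vascular markers, miR-126a-3p, miR-126a-5p and miR-143-3p were at their lowest and miR-145a-5p (301 CPM) at its highest. The choroid plexus list (8 of 9) ranged from 5203 to 39776 CPM in B6 and from 5243 to 9543 CPM, the latter in replicate 2, in BTBR. Its members did not move alike there either. In BTBR replicate 2, miR-204-5p (7739 CPM), the main part of the sum, and miR-34b-5p (149 CPM) were at their highest of the strain. By contrast, miR-448-3p (0.449 CPM), miR-1298-5p (31.0 CPM) and miR-449a-5p (8.08 CPM) were at their lowest of the 8 libraries, and miR-34c-5p (1586 CPM) at its lowest of BTBR. The part of these cell types in the results below was not tested.

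None of the 4 members passed the adjusted threshold of 0.1 between the strains, although the 3 guides had higher mean levels in BTBR mice. In the edgeR quasi-likelihood test, adjusted after Benjamini and Hochberg over all 422 miRNAs, 7 miRNAs passed (1.66%), 5 of them higher in BTBR mice (1.18%), and 0 of the 4 members were among them. Without adjustment, 3 of the 4 had a p under 0.05, which 10.9% of all miRNAs reached. This count was 1 without BTBR replicate 2, B6 replicate 3 or B6 replicate 4, and also with limma-voom, the low-count filter or the replicate number as a block. The levels of the strains overlapped for all 4 members, whereas they did not overlap for 6.64% of all miRNAs, with BTBR mice higher for 3.32%. Of the other tools, DESeq2 called 1 of the 3 members for which it gave an adjusted p, where it called 21 of 372 miRNAs (5.65%). edgeR's exact test called 0 of the 4 members and 16 of all miRNAs (3.79%), and limma-voom called 0 of 4 and 6 of all miRNAs (1.42%). The median log2 fold change of the 3 guides was 1.14, and that of all 422 miRNAs was 0.017. These medians were 0.21 and −0.029 without BTBR replicate 2.

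**Figure D1:**
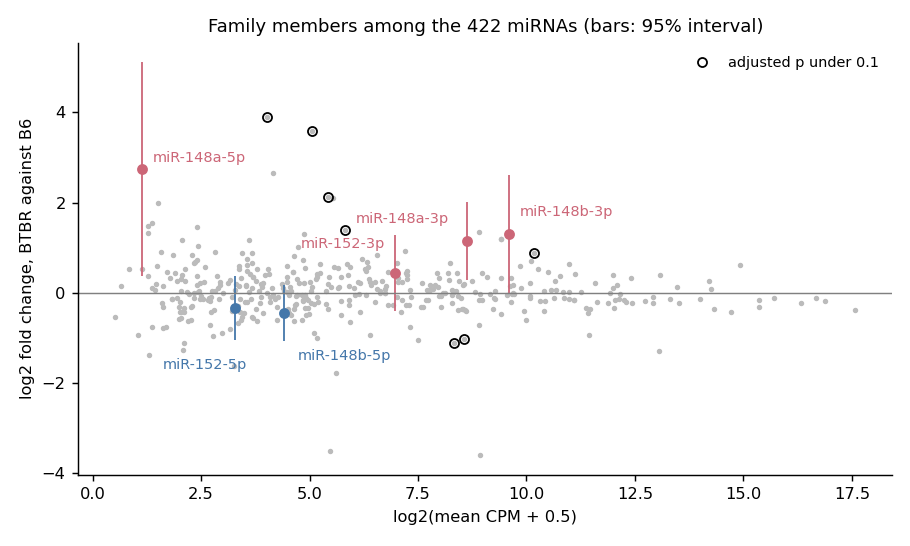
Log2 fold change of BTBR against B6 mice (vertical axis) by mean level, log2(mean CPM + 0.5) (horizontal axis), for 422 miRNAs (grey). The 4 family members (red) and the passengers miR-148b-5p and miR-152-5p (blue) carry 95% intervals, and the 7 miRNAs past the adjusted threshold are circled. The guides lie above 0, their passengers miR-148b-5p and miR-152-5p below 0, and no family member is circled.

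mmu-miR-148a-3p had levels of 263, 274.5, 162 and 293 CPM in B6 replicates 1 to 4 and 258, 1080, 497 and 360.2 CPM in BTBR replicates 1 to 4. BTBR replicates 2, 3 and 4 were above every B6 mouse, while BTBR replicate 1 lay among them. The means were 248 ± 58.9 CPM for B6 and 549 ± 368 CPM for BTBR (SD, n = 4 each). The fitted log2 fold change was 1.14 ± 0.40 (SE), its 95% interval ran from 0.28 to 2.01, and the adjusted p was 0.254 (edgeR quasi-likelihood). Mouse by mouse, the two-sided exact permutation test on log2(CPM + 0.5) gave p = 0.114, where 0.0286 is the smallest value that 4 against 4 mice allow. Without BTBR replicate 2, the mean of the BTBR mice was 372 ± 120 CPM (SD, n = 3), and the log2 fold change was 0.56 (adjusted p = 0.419 from the same edgeR test).

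mmu-miR-148b-3p was the most abundant member in every library except BTBR replicate 1, where miR-148a-3p was above it. Its levels were 374, 476, 376 and 550.0 CPM in the B6 mice and 239, 2826, 900.2 and 428 CPM in the BTBR mice. BTBR replicates 2 and 3 lay above all B6 mice, BTBR replicate 1 lay below all of them, and BTBR replicate 4 lay among them. The means were 444 ± 85.5 and 1098 ± 1185 CPM in B6 and BTBR (SD, n = 4 each), and the spread among the BTBR mice was larger than the difference. The fitted log2 fold change was 1.31 ± 0.60 (SE), with a 95% interval that reached from 0.00 to 2.61, an adjusted p of 0.451 (edgeR quasi-likelihood) and p = 0.457 in the exact permutation test. Without BTBR replicate 2 it was 0.21 (adjusted p = 0.848 from the same edgeR test).

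mmu-miR-152-3p, the least abundant guide, measured 105.2, 105.2, 89.8 and 122 CPM in B6 replicates 1 to 4, and 62.7, 272, 146 and 93.7 CPM in BTBR replicates 1 to 4. The BTBR mice stood in the same places as for miR-148b-3p, with replicates 2 and 3 above the range of B6, replicate 1 below it and replicate 4 within it. The means were 106 ± 13.2 and 144 ± 92.1 CPM (SD, n = 4 each). The fitted log2 fold change was 0.44 ± 0.38 (SE), with a 95% interval of −0.39 to 1.27 (adjusted p = 0.713, edgeR quasi-likelihood; p = 0.686 in the exact permutation test). Without BTBR replicate 2 the difference changed sign, to −0.093 (adjusted p = 0.913).

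mmu-miR-148a-5p, the passenger of miR-148a, was close to the limit of detection in every mouse but BTBR replicate 4. It had 2, 6, 1 and 1 counts in the B6 mice and 3, 1, 2 and 86 counts in the BTBR mice. The level in BTBR replicate 4, 10.3 CPM, was 11.4 times the median of the other libraries (on log2(CPM + 0.5)), the largest such excess of any of the 422 miRNAs in that library. The other 7 libraries lay between 0.202 and 1.004 CPM, and the strains overlapped. The fitted log2 fold change was 2.74 ± 1.08 (SE; adjusted p = 0.363, edgeR quasi-likelihood), and it was 0.13 without BTBR replicate 4 (adjusted p = 0.974) and 3.01 without BTBR replicate 2 (adjusted p = 0.366). miR-148a-5p was also the 1 member of 4 that did not pass edgeR's filter on low counts, which 410 of all miRNAs passed.

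**Figure D2:**
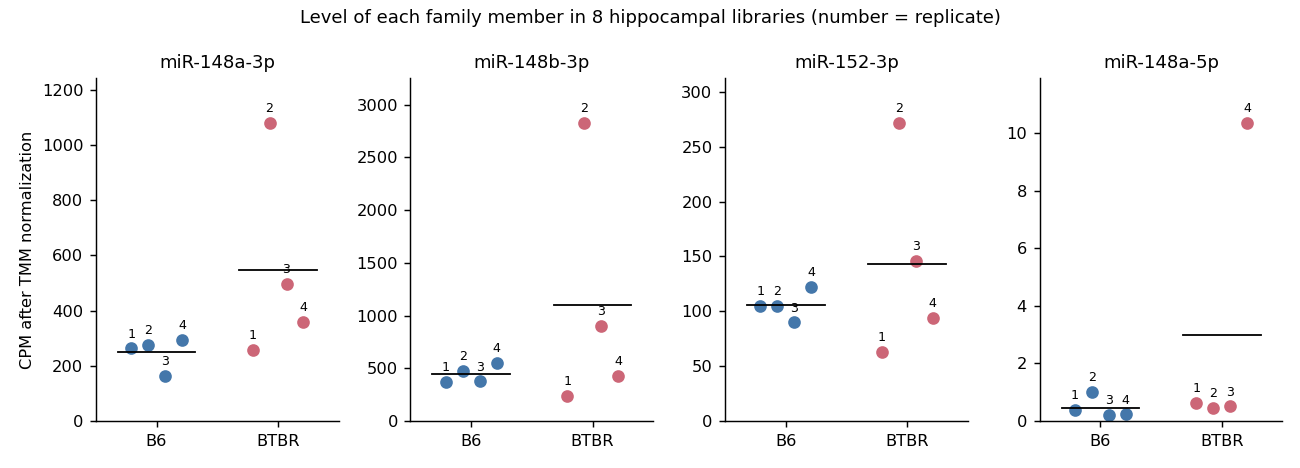
Level of each member in CPM after TMM normalization (vertical axes start at 0) in B6 and BTBR mice. Each point is 1 library with its replicate number, and the line is the mean of 4. BTBR replicate 2 is the highest library for the 3 guides, at 1080, 2826 and 272 CPM, and BTBR replicate 4 for miR-148a-5p, at 10.3 CPM.

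The guides held the same order of mice within BTBR. Replicate 2 was highest, then replicate 3, then replicate 4, and replicate 1 was lowest, for miR-148a-3p, miR-148b-3p and miR-152-3p alike. In BTBR replicate 2, miR-148b-3p was 6.60-fold over the median of the other libraries, which ranked 3 of 422 miRNAs, miR-148a-3p was 3.93-fold over it and ranked 12, and miR-152-3p was 2.58-fold over it and ranked 32. In BTBR replicate 3 the excess was 2.10-fold, 1.81-fold and 1.39-fold, at ranks 30, 46 and 90. In BTBR replicate 1, miR-148b-3p was at 0.503 and miR-152-3p at 0.598 of the median of the other libraries, among the 35 lowest of 422 miRNAs there, while miR-148a-3p was at 0.878, the 135th lowest. In BTBR replicate 4, miR-148a-3p was 1.31-fold over that median, and miR-148b-3p and miR-152-3p were below it, at 0.898 and 0.891.

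Across the 8 libraries, log2 levels of miR-148b-3p and miR-152-3p had a Pearson correlation of 0.98 (Spearman 0.93), and one of 0.95 without BTBR replicate 2. The libraries come from both strains and each is scaled as a whole, so strain and scaling can enter such correlations. miR-148a-3p was less close to its paralogues. Its Pearson correlation was 0.91 with miR-148b-3p (Spearman 0.86) and 0.86 with miR-152-3p (Spearman 0.83). Without BTBR replicate 2 these values were 0.67 and 0.56. The correlation of miR-148a-3p with miR-148b-3p was 0.81 without BTBR replicate 2 and B6 replicate 3, the libraries farthest from the median of miR-148a-3p, but 0.28 without BTBR replicates 2 and 3, those farthest from the median of miR-148b-3p, so that it rested largely on the latter. That of miR-152-3p to miR-148b-3p was 0.94 without the same libraries. The correlation of miR-148a-3p with miR-152-3p was 0.63 without BTBR replicate 2 and B6 replicate 3. It was 0.73 without BTBR replicates 2 and 1, the libraries farthest from the median of miR-152-3p.

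The passengers of miR-148b and miR-152 did not follow their guides. miR-148b-5p measured 24.9, 23.1, 26.0 and 21.8 CPM in B6 replicates 1 to 4, and 24.9, 12.1, 15.3 and 17.6 CPM in BTBR replicates 1 to 4. The lowest level was that of BTBR replicate 2, where the guide was highest, and the level of BTBR replicate 1, where the guide was lowest, lay within the range of B6. The fitted log2 fold change of −0.45 ± 0.29 (SE) did not pass the threshold (adjusted p = 0.617, edgeR quasi-likelihood), and it was −0.34 without BTBR replicate 2. miR-152-5p measured 10.9, 11.54, 7.67 and 11.01 CPM in B6, and 10.1, 5.84, 8.77 and 7.70 CPM in BTBR replicates 1 to 4. It too was lowest in BTBR replicate 2, with 13 counts there, and had a fitted log2 fold change of −0.34 ± 0.32 (SE; adjusted p = 0.731), or −0.25 without that library.

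**Figure D3:**
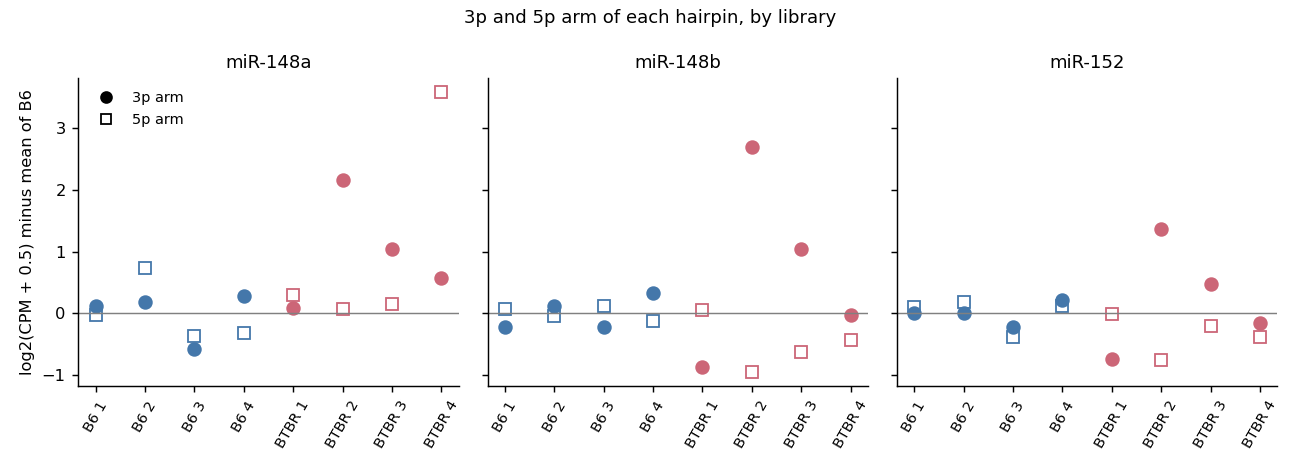
Log2(CPM + 0.5) of the 3p arm (filled circles) and the 5p arm (open squares) of each hairpin, as the difference from the mean of the B6 mice (vertical axis), in B6 (blue) and BTBR (red) libraries. In BTBR replicates 2 and 3 the guides of miR-148b and miR-152 lie above 0 and their passengers below it, while the high point of miR-148a-5p is BTBR replicate 4.

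The ratio of guide to passenger counts shows this within each library, free of the scaling between libraries. For miR-148b it was 15.0, 20.6, 14.4 and 25.2 in the B6 mice and 9.62, 233, 58.9 and 24.3 in the BTBR mice. For miR-152 it was 9.61, 9.12, 11.7 and 11.1 in the B6 mice and 6.22, 46.5, 16.7 and 12.2 in the BTBR mice. For miR-148a it was 685, 273.5, 802 and 1306 in the B6 mice and 418, 2406, 993 and 34.8 in the BTBR mice, with 1 to 6 passenger counts in all but the last. None of these ratios separated the strains (two-sided exact permutation tests, p = 0.314, 0.457 and 0.943, adjusted p = 0.549, 0.549 and 0.943 over the 6 ratios compared), and for 2.02% of the 99 hairpin names with both arms measured the strains did not overlap. The log2 ratio was higher in BTBR by 1.20 for miR-148b and by 0.57 for miR-152, but without BTBR replicate 2 by 0.38 and 0.056, and without BTBR replicate 1 by 1.90 and 1.004. These were the lowest and the highest differences with any mouse left out. The difference of −0.058 for miR-148a was −0.77 without BTBR replicate 2. In BTBR replicate 2 the shift of the 3p to 5p ratio from the median of the other libraries was 3.47 on the log2 scale for miR-148b, 2.30 for miR-148a and 2.01 for miR-152. These ranked 1, 3 and 5 of 99 among shifts towards the 3p arm, and 2, 6 and 10 by size in either direction, the largest being −6.04 for miR-448. The median shift of the 99 was −0.089, and 11 of them were over 4-fold, 6 towards the 3p arm and 5 towards the 5p arm. Passenger counts were low in that library, at 27 for miR-148b-5p, 1 for miR-148a-5p and 13 for miR-152-5p.

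Summed over the 3 guides, the seed family reached 742, 856, 627 and 966 CPM in B6 replicates 1 to 4, and 560, 4178, 1544 and 882 CPM in BTBR replicates 1 to 4. BTBR replicates 2 and 3 were above every B6 mouse, replicate 4 lay within the range of B6, and replicate 1 lay below it. The means were 798 ± 146 and 1791 ± 1643 CPM (SD, n = 4 each), and the difference of the log2 sums was 0.76, or 0.21 without BTBR replicate 2. The sum is a description and was not tested. The family took between 0.0548% and 0.101% of the counts in B6 libraries and between 0.0580% and 0.414% in BTBR libraries.

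**Figure D4:**
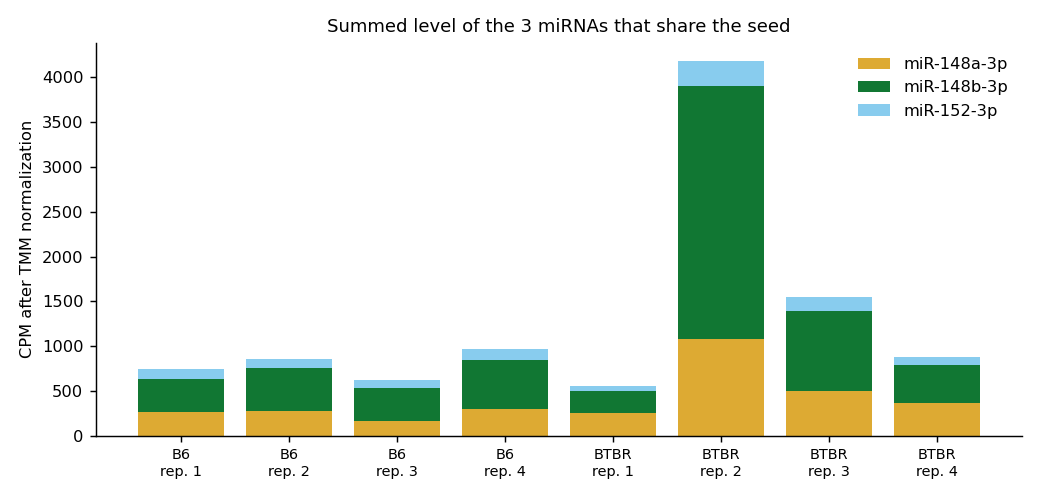
Summed level of the guides in CPM after TMM normalization (vertical axis) in each library, stacked by miRNA. The bar of BTBR replicate 2 reaches 4178 CPM, that of BTBR replicate 3 1544 CPM, and the others lie between 560 and 966 CPM.

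miR-148b-3p supplied between 50.4% and 59.9% of the family's counts in B6 and between 42.8% and 67.6% in BTBR mice. miR-148a-3p supplied between 25.8% and 35.4% in B6 and between 25.9% and 46.0% in BTBR mice. miR-152-3p had a share of 12.3% to 14.3% in B6 and 6.50% to 11.2% in BTBR mice. The shares are a description and were not tested. The shares in the BTBR mice other than replicate 2 were 42.8% to 58.3% for miR-148b-3p, 32.2% to 46.0% for miR-148a-3p and 9.46% to 11.2% for miR-152-3p.

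Whether the guides moved by the same amount was compared through their ratios within each library, as part of 6 ratios with Benjamini-Hochberg adjustment over the 6. There were 0.400, 0.383, 0.555 and 0.417 counts of miR-152-3p per count of miR-148a-3p in the B6 mice and 0.243, 0.251, 0.294 and 0.260 in the BTBR mice. Each BTBR mouse lay below each B6 mouse, also BTBR replicate 2, and the mean log2 ratio differed by −0.73 (two-sided exact permutation test, p = 0.0286, the smallest possible, adjusted p = 0.171). The difference therefore failed the correction, in which a single ratio at the smallest p cannot pass. Such a separation was also not rare, since the strains did not overlap for 12.6% of the 421 ratios of another miRNA to miR-148a-3p. Per count of miR-148a-3p there were 1.42, 1.73, 2.32 and 1.87 counts of miR-148b-3p in the B6 mice and 0.929, 2.62, 1.81 and 1.19 in the BTBR mice, which overlapped (difference of −0.26 in mean log2 ratio, exact permutation p = 0.457, adjusted p = 0.549). The log2 ratio of miR-152-3p to miR-148b-3p differed by −0.47 (exact permutation p = 0.2, adjusted p = 0.549). Without BTBR replicate 2 the differences were −0.71 for miR-152-3p over miR-148a-3p, −0.52 for miR-148b-3p over miR-148a-3p and −0.19 for miR-152-3p over miR-148b-3p. With each mouse left out in turn, the first ranged from −0.79 to −0.61. The second ranged from −0.52 to −0.024, the latter without BTBR replicate 1, and was −0.14 without B6 replicate 3 or BTBR replicate 4. The third ranged from −0.67 to −0.19.

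**Figure D5:**
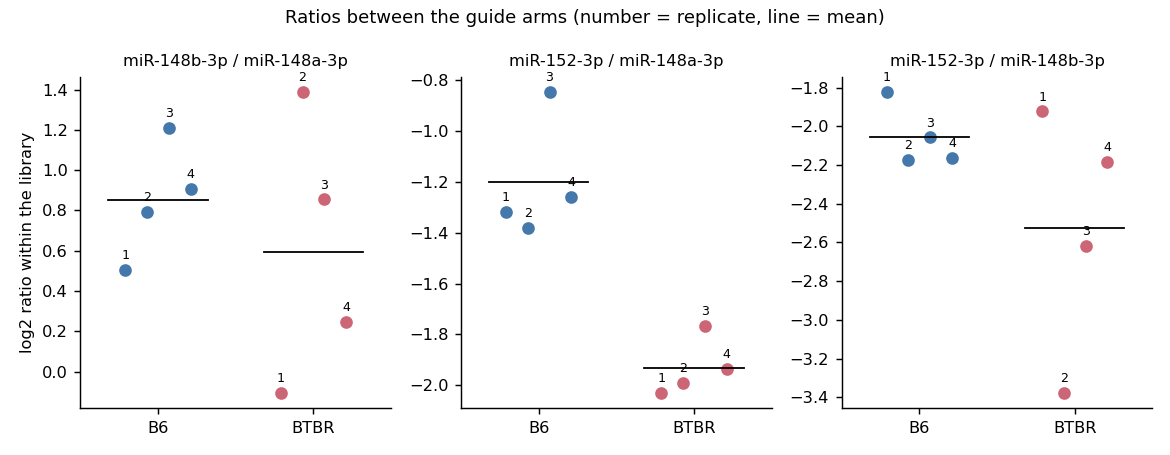
Log2 ratio of CPM + 0.5 between the guides within each library (vertical axes, each with its own range, not starting at 0), with the replicate number at each point and the mean as a line. The strains are separate for miR-152-3p over miR-148a-3p, with means of −1.20 in B6 and −1.93 in BTBR mice, and overlap for the other ratios.

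The miR-130 and miR-301 miRNAs carry a related seed, shifted by 1 base against that of miR-148 and miR-152, and are shown to compare a family that reads partly the same sites.
miR-130a-3p: cAGUGCAAuguuaaaagggcau
miR-301a-3p: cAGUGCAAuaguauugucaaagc

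Of the list of 4 (miR-130a-3p, miR-130b-3p, miR-301a-3p and miR-301b-3p), miR-130b-3p was not analysed here, and 0 of the other 3 passed the threshold, with a median log2 fold change of −0.14. miR-301a-3p, the most abundant, had mean levels of 677 ± 136 CPM in B6 and 531 ± 97.4 CPM in BTBR (SD, n = 4 each), a fitted log2 difference of −0.35 ± 0.21 (SE; adjusted p = 0.601, edgeR quasi-likelihood). In BTBR replicate 2 it had 450.3 CPM, below the B6 mice, which lay between 542 and 844 CPM. miR-130a-3p had 18.6 ± 2.02 and 17.0 ± 5.49 CPM, a fitted log2 difference of −0.14 ± 0.30 (SE). miR-301b-3p had 7 to 52 counts per library and a fitted log2 difference of 0.40 ± 0.42 (SE). With BTBR replicate 2 left out, these differences were −0.31 for miR-301a-3p, −0.33 for miR-130a-3p and 0.47 for miR-301b-3p.

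Outside the family, the miRNAs whose log2 levels were most like those of the guides over the 8 libraries were largely the same for each guide, and each was also highest in BTBR replicate 2. miR-106b-3p, miR-21a-5p and miR-7231-5p were among the 5 nearest of all 3 guides. miR-21a-5p, an abundant miRNA known to rise in reactive glia and inflammation, had Pearson correlations of 0.96, 0.93 and 0.88 with miR-148a-3p, miR-148b-3p and miR-152-3p, and of 0.88, 0.68 and 0.56 without BTBR replicate 2. It had 4257 CPM in that library and 1377 to 2163 CPM in the others. miR-106b-3p, a passenger strand of the miR-106b/25 cluster, had 33.2 CPM there and 5.55 to 13.02 CPM elsewhere (r = 0.91, 0.95 and 0.92 with miR-148a-3p, miR-148b-3p and miR-152-3p, and 0.71, 0.84 and 0.73 without that library). miR-7231-5p had 8.08 CPM there and 0.202 to 2.004 CPM elsewhere (r = 0.97, 0.93 and 0.91 with the guides in the same order, and 0.91, 0.71 and 0.71 without that library), but it rested on 1 to 18 counts per library and did not pass the filter on low counts. miR-221-5p was nearest to both miR-148b-3p and miR-152-3p (r = 0.96 with each, and 0.85 and 0.87 without BTBR replicate 2), and it had 116 CPM in BTBR replicate 2 and 30.4 to 56.6 CPM in the others. The remaining neighbours were miR-212-5p and let-7g-5p for miR-148a-3p, miR-185-5p for miR-148b-3p and miR-99b-5p for miR-152-3p. None of these 8 miRNAs passed the adjusted threshold between the strains, with adjusted p from 0.254 to 0.787 (edgeR quasi-likelihood). The likeness is a description over 8 libraries, in which 1 library held the highest level of each miRNA.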

How the data were processed

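Per the file headers and the methods of the study, the authors deposited counts of small RNA reads for 422 miRNAs in 8 libraries, 1 per mouse. Reads were checked with FastQC 0.11.2, mapped with Bowtie through sRNAbench to GRCm38, and assigned where they lay fully within miRBase v21 coordinates. Reads that matched several miRNAs had been split and the values rounded, so paralogues may share a few reads. There were no molecular identifiers. The paper's own fold changes and FDR values were not used.

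Groups came from sample titles, and library columns from library names. The whole table was fitted with edgeR 4.0.16 (TMM, quasi-likelihood test, no covariates, threshold 0.1) in R 4.3.3, with limma 3.58.1 and DESeq2 1.42.0 as alternatives. The SE of a fold change was its size over the root of its F value. Ratios were compared as log2 of CPM + 0.5 by two-sided exact permutation tests over 70 assignments (scipy 1.17.1). The steps were tested on simulated data. Depth was 2247482 to 7904990 counts per library, so that a miRNA at 1 CPM rests on a few reads.

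Named were the 4 members, their passengers, the miR-130 and miR-301 list and the 5 non-members nearest to each guide by Pearson correlation. The members and lists were chosen with earlier results of these data known, miR-148a-3p among them. RefSeq held mature sequences under the same name for 367 of the 422 miRNAs. Host genes came from GENCODE M21. Alternatives were other tests, normalizations, a low-count filter, robust dispersions, replicate blocks, another threshold and pseudocount, and each mouse left out in turn.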

Additional observations from a re-analysis of the deposited data

Results flagged for a closer look

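In 32 groups of 4 mice (the levels of members, passengers and related miRNAs, the family sum and the ratios), the gap of the most extreme mouse to its nearest neighbour was compared with the whole range of its group, and 2 groups passed Dixon's 95% critical value, which chance passes in about 1 in 20. miR-148a-5p in BTBR replicate 4, at 10.3 CPM, lay far above the next BTBR mouse at 0.617 CPM (ratio 0.983), and 86 counts stood behind it against 1 to 3 in the other BTBR mice. The guide from the same hairpin, miR-148a-3p, had 360.2 CPM in that library, between those of BTBR replicates 1 and 3. miR-152-5p in B6 replicate 3, at 7.67 CPM, lay below the next B6 mouse at 10.9 CPM (ratio 0.844), on 38 counts.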

How the results depend on the processing

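No member passed the threshold under an alternative, except that miR-148a-3p passed in the DESeq2 Wald test, with a log2 fold change of 1.14 and an adjusted p of 0.0980. Over 18 alternatives its adjusted p lay between 0.0980 and 0.567. miR-148a-3p, miR-148b-3p and miR-148a-5p kept their direction throughout, and DESeq2 gave no p for miR-148a-5p, which the low-count filter also removed. With mice left out in turn, log2 fold changes ranged from 0.56 to 1.38 for miR-148a-3p, from 0.21 to 1.64 for miR-148b-3p, from 0.13 to 3.48 for miR-148a-5p, from −0.093 to 0.69 for miR-152-3p and from 0.21 to 1.18 for the family sum. The lowest value came without BTBR replicate 2, apart from miR-148a-5p, where it came without BTBR replicate 4. The log2 arm ratio of miR-148a, −0.058, turned to 0.34 with a pseudocount of 2 CPM, and ranged from −0.77 to 0.93 with mice left out, being above 0 without B6 replicate 4 (0.14) or BTBR replicate 4 (0.93). The other ratios kept their direction and stayed short of the threshold.

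The labels give both strains replicate numbers 1 to 4. Deviations of same-numbered mice correlated between −0.15 and 0.05, which shows no sign of pairing by number. These few correlations cannot exclude it. With the replicate number as a block, log2 fold changes were 0.97, 1.80, 0.68 and 0.23 for miR-148a-3p, miR-148a-5p, miR-148b-3p and miR-152-3p. In the same order they were 1.14, 2.74, 1.31 and 0.44 in the reported fit, and 0.93, 1.80, 0.65 and 0.17 with limma-voom. With the block 3 of all miRNAs passed. For the ratios, an exact permutation within blocks cannot go below p = 0.125. Over all miRNAs, 7 passed in the reported fit, 21 with DESeq2, 16 with edgeR's exact test, 4 with library size only or at a threshold of 0.05, 13 without B6 replicate 2, 4 without BTBR replicate 1 and 3 without BTBR replicate 3 or 4.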

Other observations

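BTBR replicate 2 placed other miRNAs beside the guides, named here after their values were seen. By the excess of log2(CPM + 0.5) over the median of the other 7 libraries, miR-183-5p (3.16) and miR-200c-3p (3.09) stood above miR-148b-3p (2.72), and miR-218-1-3p (2.48) and miR-7231-5p (2.44), both too low to pass the filter on low counts, followed. The first of these were not particular to that library. miR-183-5p had 42.6 CPM there and 4.32, 57.4 and 12.9 CPM in BTBR replicates 1, 3 and 4, against 0.449 to 4.80 CPM in B6 mice, so that BTBR replicate 1 lay within the range of B6, and miR-200c-3p had 53.9 to 66.1 CPM in all BTBR mice, against 3.63 to 6.52 CPM in B6 mice. miR-148a-3p (1.97) came after miR-128-2-5p (2.10) and before miR-12189-3p (1.96).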
